A study of Mus musculus with 4 samples.

Results

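The genes described here are 32 genes of DNA replication and of entry into S phase, chosen by name as the parts of the replication machinery and its supply. Members were read from all probe sets whose platform annotation gives 1 symbol, averaged per gene, which placed 31 of the 32 among the 18194 genes read this way, on 69 probe sets. No probe set with Chaf1a as its single symbol was in the annotation used here. Of the 31, 17 had a mean signal over the arrays over the midpoint of all genes (7.05 in log2 signal), and the 14 at or below it are called dim. Just past that line stood Mcm2, with a mean of 7.14, and just under it Rpa2, with 7.05.

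The cells were AEC2, type II alveolar epithelial cells, the surfactant-producing cells that also act as stem cells of the alveolus, isolated from mouse lungs by flow sorting. The 4 groups were Tlr4-/- mice at day 4 after bleomycin, wild-type mice at day 4 after bleomycin, untreated Tlr4-/- mice and untreated wild-type mice. Bleomycin is a drug that breaks DNA and injures the lung epithelium, and TLR4 is a receptor of innate immunity. Each group had 1 array, hybridised with RNA of AEC2 pooled from 4 to 5 mice, so the groups have no replicates of their own. The series asks how hyaluronan and TLR4 bear on the renewal of these cells. The strain, age and sex of the mice and the Tlr4 allele are not known here.

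Replication starts at origins bound by the origin recognition complex, to which Cdc6 and Cdt1 add the ring of Mcm2 to Mcm7. With Cdc45 and the GINS proteins the ring becomes the helicase that opens the DNA, and primase, the polymerases, the sliding clamp Pcna and its loader, replication factor C, copy the strands behind it. Many of these genes are transcribed under E2F factors, which the retinoblastoma proteins hold back until cyclin-dependent kinases release them. In the adult lung AEC2 divide rarely and re-enter the cell cycle after injury.

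Promoter stretches are shown for Orc6, a member called after bleomycin, for Uhrf1, the member with the largest wild-type difference, and for the helicase genes Mcm5 and Mcm6, which hold an E2F-type motif. They come from RefSeq (GRCm38.p6), run 5′ to 3′ along the strand of the gene, and stop before the gene's outermost annotated start. Capitals mark an E2F-type octamer or a CCAAT box, the site of the factor NF-Y, on either strand.
Orc6 (chr8:85299432-85299631, + strand): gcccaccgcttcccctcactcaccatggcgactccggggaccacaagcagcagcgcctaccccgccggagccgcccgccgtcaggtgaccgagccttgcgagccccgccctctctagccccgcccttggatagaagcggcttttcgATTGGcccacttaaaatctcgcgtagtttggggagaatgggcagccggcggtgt
Uhrf1 (chr17:56303137-56303336, + strand): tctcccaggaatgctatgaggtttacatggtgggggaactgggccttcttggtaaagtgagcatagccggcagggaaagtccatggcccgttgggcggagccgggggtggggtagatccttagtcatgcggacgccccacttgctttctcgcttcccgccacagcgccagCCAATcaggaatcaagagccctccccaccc
Mcm5 (chr8:75109309-75109467, + strand): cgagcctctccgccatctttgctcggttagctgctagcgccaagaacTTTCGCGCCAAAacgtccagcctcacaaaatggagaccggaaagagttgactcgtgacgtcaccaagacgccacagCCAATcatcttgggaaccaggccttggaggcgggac
Mcm6 (chr1:128359706-128359905, - strand): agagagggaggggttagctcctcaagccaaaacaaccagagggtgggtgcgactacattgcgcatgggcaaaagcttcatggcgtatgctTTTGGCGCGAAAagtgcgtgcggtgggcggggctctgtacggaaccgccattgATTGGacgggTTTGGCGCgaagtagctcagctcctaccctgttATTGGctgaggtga

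The octamers searched were TTTCCCGC, TTTCGCGC, TTTGCCGC and TTTGGCGC and their reverse complements, in the 250 bases before each start. RefSeq windows were found for 27 of the 32 genes, and those of Ccne2, Gins2, Gmnn, Mcm4 and Pole were not among them. An octamer lay before 6 of the 27 genes (22.2%), namely Cdc6, Mcm5, Mcm6, Mcm7, Rfc3 and Uhrf1, against 2.16% of the 27025 genes of the table. For Uhrf1 it lay before a second annotated start, not in the stretch shown. In Mcm5 the octamers of the 2 strands overlap by 4 letters, and in the more distant site of Mcm6 they do likewise. A CCAAT box was found before 17 of the 27 members and before 37.5% of the genes of the table. A match is a run of letters and not a shown site of binding, and Orc6 held none of the octamers in its window.

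The AEC2 genes Sftpc and Sftpb gave signals between 13.9 and 14.1 on every array, and those of Abca3 between 10.37 and 11.11. Lamp3 was not analysed here because its probe set carries several symbols. One of the 4 probe sets of Tlr4 was clearly lower in the mutants, at 6.39 in Tlr4-/- and 9.07 in wild type at day 4, and at 7.24 in Tlr4-/- and 8.87 in wild type untreated. The 2 brightest others were higher in Tlr4-/- than in wild type, and where each lies relative to the deleted part is not known. The Y-linked gene Eif2s3y was at 8.87 in Tlr4-/- and 8.85 in wild type at day 4, against 6.86 in Tlr4-/- and 6.82 in wild type untreated, and since the sex of the mice is not known here, sex and treatment cannot be told apart. Signals of different genes come from different probes and are not set against each other.

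**Figure D1:**
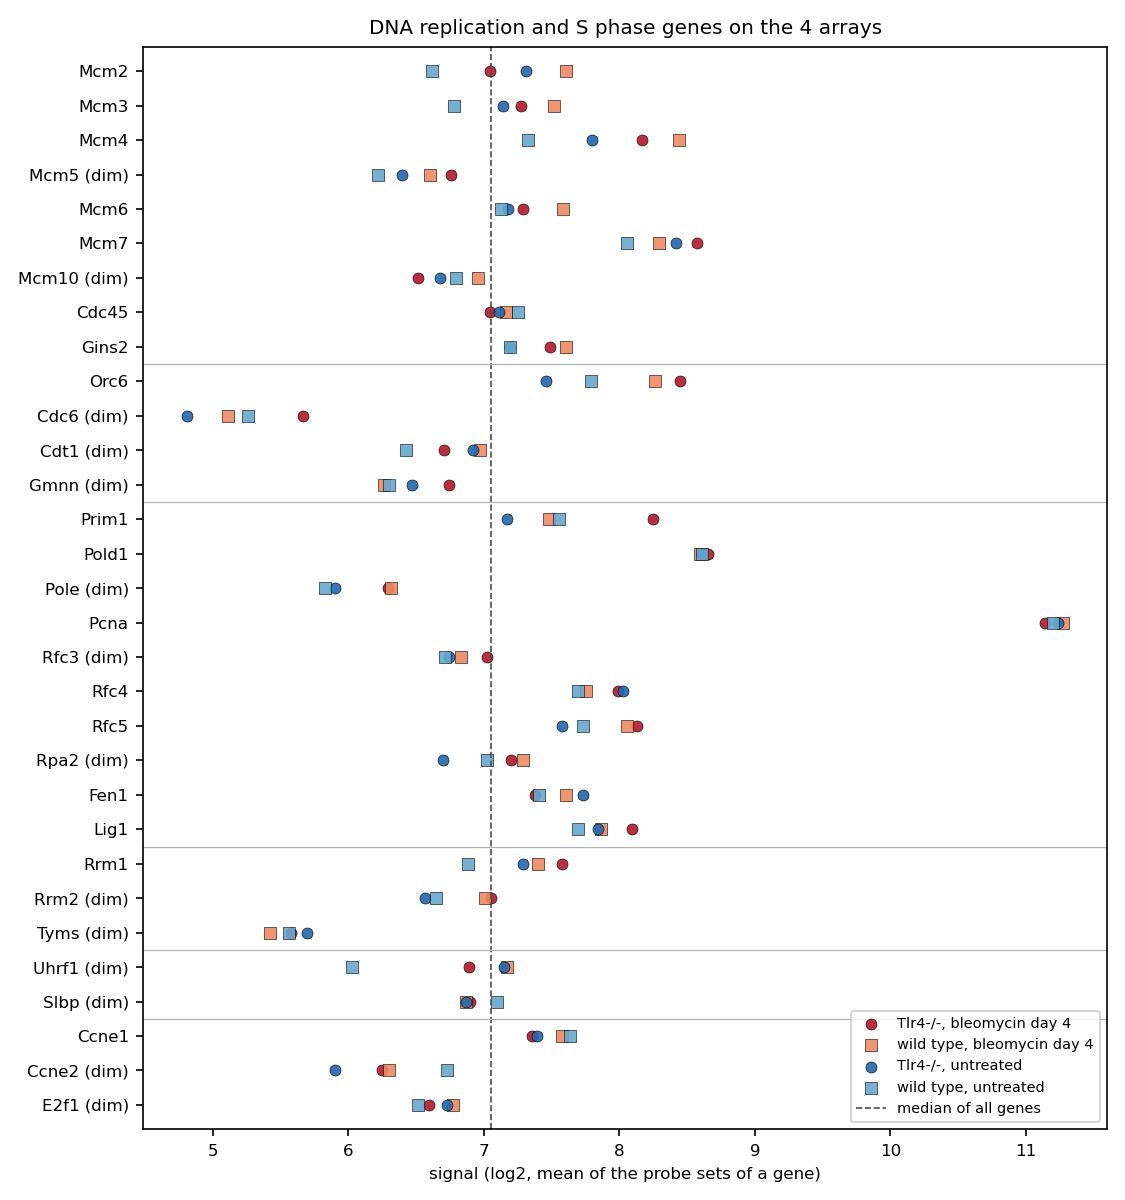
Log2 signal of each of the 31 measured genes (rows, grouped by role) on the 4 arrays, 1 point per array, with the median of all genes as a dashed line at 7.05. The wild-type untreated array is the lowest of the 4 for 14 of the 31 genes (45.2%), as it is for 30.3% of all genes, and the points of Pcna and Pold1 lie on top of each other.

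Day 4 after bleomycin, 13 of the 17 replication genes past the filter had an effect above 0, as did 55.9% of all genes past it. Across both genotypes the origin protein gene Orc6 and the helicase gene Mcm4 rose, while the clamp gene Pcna and the catalytic polymerase delta gene Pold1 stood at nearly the same signal on all 4 arrays. The test was limma with genotype and treatment as terms, which leaves 1 residual degree of freedom per gene and takes any difference between the responses of the genotypes as error. Of the 17 members past the filter, 2 rose and 0 fell at an adjusted p under 0.05, against 7.18% of 9097 genes that rose and 2.53% that fell. The median effect was 0.28 (log2) over these 17 and 0.04 over the 9097 genes. At an unadjusted p under 0.05, 7 of the 17 were higher and 0 lower, against 15.7% and 8.24% of genes.

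With all 18194 genes in the fit, dim ones included, 0 of the 31 members were called, against 1.75% of genes that rose and 0.264% that fell, and the smallest adjusted p of a member was 0.109. In that fit 9 of the 31 were higher and 0 lower at an unadjusted p under 0.05, against 11.1% and 6.63% of genes. The calls of Orc6 and Mcm4 were also lost when each column was centred on its median, when each gene was read by its brightest probe set, or when either day 4 array was left out. Orc6 alone was called without the wild-type untreated array, and Mcm4 and Rrm1 without the Tlr4-/- untreated array. The fits with an array left out had treatment as their only term, so they also differ from the main fit in the model. Both day 4 arrays lay above both untreated arrays for 13 of the 31 members, against 23.1% of all genes, and below them for 0, against 25.3%. These 13, read by the mean of their probe sets, were Mcm3, Mcm4, Mcm5, Mcm6, Gins2, Orc6, Pole, Rfc3, Rfc5, Rpa2, Lig1, Rrm1 and Rrm2. An exact two-sided permutation test of 2 arrays against 2 cannot give a p below 0.333.

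**Figure D2:**
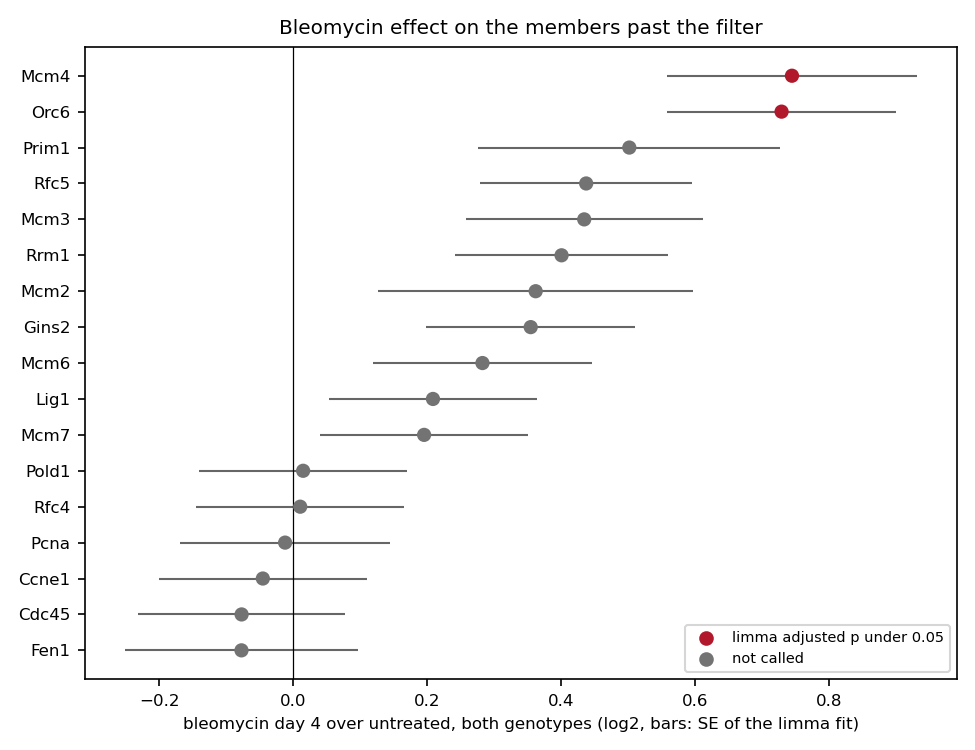
Bleomycin effect (log2, day 4 over untreated across both genotypes) of the 17 members past the filter, with bars for the limma standard error. Mcm4 (0.74) and Orc6 (0.73) are called at an adjusted p under 0.05, and Pold1, Rfc4, Pcna, Ccne1, Cdc45 and Fen1 lie near 0.

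Of the 9 helicase genes, 7 passed the filter and 1, Mcm4, was called. At day 4 over untreated, 6 of the 9 were above 0 in Tlr4-/- (median 0.13) and 8 of the 9 in wild type (median 0.41). Mcm4, a subunit of the ring, had signals of 8.17 in Tlr4-/- and 8.44 in wild type at day 4, against 7.80 in Tlr4-/- and 7.32 in wild type untreated. The day 4 arrays did not overlap with the untreated ones, and the gene rose by 0.74 ± 0.19 (SE, limma adjusted p = 0.0263, higher in 2 of 2 genotypes). Its difference was 0.37 in Tlr4-/- and 1.11 in wild type, or 2.17-fold in wild type. Both of its probe sets were higher, by 0.61 and 0.88.

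Mcm2, another ring subunit, was at 7.05 in Tlr4-/- and 7.60 in wild type at day 4, against 7.31 in Tlr4-/- and 6.62 in wild type untreated. The wild-type untreated array was the lowest and the wild-type day 4 array the highest, and the difference was -0.26 in Tlr4-/- and 0.99 in wild type. Mcm3, also of the ring, was at 7.27 in Tlr4-/- and 7.51 in wild type at day 4, against 7.14 in Tlr4-/- and 6.78 in wild type untreated, without overlap of the treatments. Its limma effect was 0.43 ± 0.18 (SE, limma adjusted p = 0.153), and its 5 probe sets ranged from -0.04 to 1.05.

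Mcm5 was dim by its mean and higher in both genotypes, at 6.76 in Tlr4-/- and 6.61 in wild type at day 4, against 6.39 in Tlr4-/- and 6.22 in wild type untreated. Its probe sets had means of 7.62, 6.46 and 5.40, with effects of 0.68, 0.45 and 0.00045 in that order. Mcm6 had 7.29 in Tlr4-/- and 7.59 in wild type at day 4, against 7.18 in Tlr4-/- and 7.13 in wild type untreated, and Mcm7 had 8.57 and 8.29 at day 4, against 8.42 and 8.05 untreated, in the same order of genotypes. The untreated wild-type signal was the lowest of the 4 for each of these 3 subunits. For Mcm7 the Tlr4-/- untreated array lay above the wild-type day 4 array, so the groups overlapped.

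Over the 6 ring genes, the bleomycin difference had a median of 0.14 in Tlr4-/- and 0.60 in wild type, with 5 of 6 above 0 in Tlr4-/- and 6 of 6 in wild type. Under quantile normalization and under centring the same counts were found, and with the probe set of highest mean 4 of 6 were above 0 in Tlr4-/-. Gins2, a GINS subunit, had 7.49 in Tlr4-/- and 7.61 in wild type at day 4, against 7.19 in Tlr4-/- and 7.20 in wild type untreated, a gap between groups that did not pass the test (0.35 ± 0.16, SE, limma adjusted p = 0.185). Cdc45, which joins the ring at firing, stayed between 7.05 and 7.26, and the dim Mcm10, which acts at activation of the helicase, between 6.51 and 6.96.

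Among the origin licensing genes, Orc6, the smallest subunit of the origin recognition complex, had 8.45 in Tlr4-/- and 8.26 in wild type at day 4, against 7.46 in Tlr4-/- and 7.79 in wild type untreated. It rose by 0.73 ± 0.17 (SE, limma adjusted p = 0.0189, higher in 2 of 2 genotypes) on its 1 probe set. Its difference was 0.99 in Tlr4-/- and 0.47 in wild type, the reverse of the order seen for Mcm4. The loaders Cdc6 and Cdt1 and the Cdt1 inhibitor Gmnn were all dim. Cdc6 was at 5.66 in Tlr4-/- and 5.11 in wild type at day 4, against 4.81 in Tlr4-/- and 5.26 in wild type untreated, and differed by 0.85 in Tlr4-/- and -0.15 in wild type. Cdt1 differed the other way, by -0.21 in Tlr4-/- and 0.54 in wild type, and Gmnn by 0.27 and -0.04 in that order. The probe sets of Cdt1 had means of 8.42, 6.95 and 4.90. The brightest differed by -0.27 in Tlr4-/- and 0.93 in wild type, the next by -0.13 and 0.81, and the dimmest by -0.22 and -0.11. For all 3 genes the day 4 and untreated arrays overlapped.

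Of the 10 genes of synthesis at the fork, 7 passed the filter and 0 passed the test. Their bleomycin differences ran from -0.36 to 1.08 in Tlr4-/- and from -0.08 to 0.49 in wild type. Pcna was at 11.14 in Tlr4-/- and 11.27 in wild type at day 4, against 11.23 in Tlr4-/- and 11.20 in wild type untreated, an effect of -0.01 ± 0.16 (SE, limma adjusted p = 0.981). Pold1 lay between 8.60 and 8.65 on every array, as the mean of 2 probe sets with effects of 0.13 and -0.10. The clamp loader subunit Rfc5 had 8.13 in Tlr4-/- and 8.06 in wild type at day 4, against 7.58 in Tlr4-/- and 7.73 in wild type untreated. The groups did not overlap, yet the effect of 0.44 ± 0.16 did not pass (SE, limma adjusted p = 0.107). The loader subunit Rfc4 differed by -0.03 in Tlr4-/- and 0.05 in wild type, and the dim Rfc3 by 0.28 and 0.12 in that order of genotypes.

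Prim1, the catalytic subunit of primase, stood apart in the Tlr4-/- day 4 array. Its signals were 8.25 in Tlr4-/- and 7.48 in wild type at day 4, against 7.17 in Tlr4-/- and 7.56 in wild type untreated. The difference was 1.08 in Tlr4-/-, or 2.11-fold, and -0.08 in wild type, and the limma effect of 0.50 ± 0.23 did not pass (SE, limma adjusted p = 0.196). Fitted by treatment alone, that effect was 0.12 without the Tlr4-/- day 4 array and 0.89 without the wild-type day 4 array. In its brighter probe set wild type was at 7.79 at day 4 and 8.30 untreated, whereas in the dimmer one it was at 7.18 at day 4 and 6.82 untreated, so the sign of the wild-type difference depends on the probe set. The flap nuclease gene Fen1 differed by -0.36 in Tlr4-/- and 0.20 in wild type. Its brighter probe set, with a mean of 9.48, differed by -0.30 in Tlr4-/- and -0.14 in wild type. The dimmer one, with a mean of 5.59, differed by -0.41 and 0.54. The ligase gene Lig1 differed by 0.25 in Tlr4-/- and 0.17 in wild type. The dim polymerase epsilon gene Pole was higher by 0.39 in Tlr4-/- and 0.49 in wild type. Rpa2, also dim, encodes a subunit of the single-strand binding protein RPA and was higher by 0.50 and 0.27 in that order. Its brighter probe set differed by 0.31 in Tlr4-/- and -0.21 in wild type, and its dimmer one by 0.69 and 0.75.

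Ribonucleotide reductase makes the deoxynucleotides for synthesis. Its large subunit gene Rrm1 had 7.57 in Tlr4-/- and 7.40 in wild type at day 4, against 7.29 in Tlr4-/- and 6.88 in wild type untreated, an effect of 0.40 ± 0.16 (SE, limma adjusted p = 0.141). The groups did not overlap. Fitted by treatment alone, the effect was 0.61 without the Tlr4-/- untreated array and 0.20 without the wild-type untreated array. Its brightest probe set alone, at 9.29 in Tlr4-/- and 9.17 in wild type at day 4 and 8.36 and 8.41 untreated, was higher by 0.84 and passed when each gene was read by such a probe set (limma adjusted p = 0.0427). The small subunit gene Rrm2 was dim, and its probe sets disagreed, with effects of -0.29 and 0.06 in a pair of them, while the third differed by 1.07 in Tlr4-/- and 1.93 in wild type. The thymidylate synthase gene Tyms was dim on all arrays and between 5.42 and 5.69.

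Uhrf1, which carries DNA methylation over to the new strand, was the member with the largest wild-type difference. It was dim by its mean, at 6.89 in Tlr4-/- and 7.17 in wild type at day 4, against 7.15 in Tlr4-/- and 6.03 in wild type untreated. The wild-type untreated array stood alone and low in both probe sets. The difference was -0.26 in Tlr4-/- and 1.14 in wild type, or 2.20-fold in wild type. The histone mRNA binding protein gene Slbp, also dim by its mean, stayed between 6.87 and 7.10. Its brightest probe set lay between 9.61 and 9.76, and its dimmest between 4.12 and 4.20.

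Among the genes of S phase entry, Ccne1, a cyclin that drives that step, had 7.35 in Tlr4-/- and 7.58 in wild type at day 4, against 7.39 in Tlr4-/- and 7.63 in wild type untreated, so the genotypes differed more than the treatments. The related cyclin gene Ccne2 was dim, at 6.25 in Tlr4-/- and 6.30 in wild type at day 4, against 5.90 in Tlr4-/- and 6.73 in wild type untreated. E2f1, an E2F factor, was dim and between 6.52 and 6.77.

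**Figure D3:**
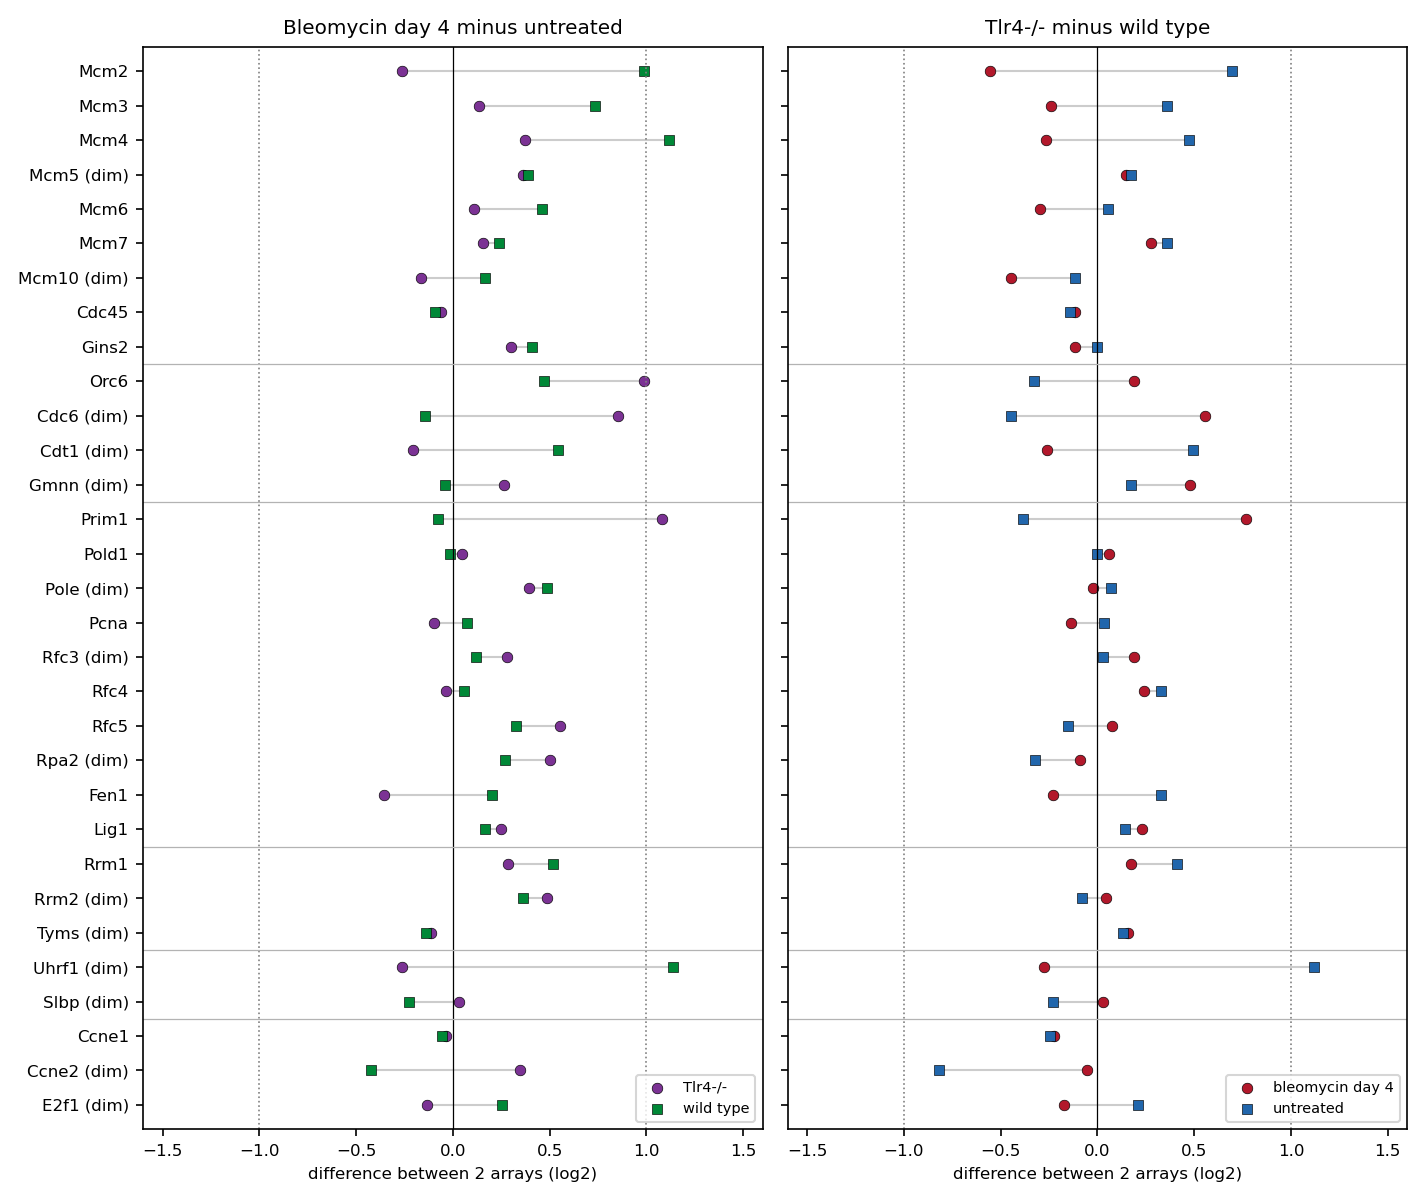
Differences between 2 arrays (log2) of each measured gene, at left bleomycin day 4 minus untreated in Tlr4-/- (circles) and wild type (squares), at right Tlr4-/- minus wild type at day 4 (circles) and untreated (squares), with dotted lines at 2-fold. Uhrf1 and Mcm4 pass 2-fold after bleomycin in wild type, Prim1 in Tlr4-/-, and Uhrf1 between the untreated genotypes.

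Between single arrays few members reached 2-fold. After bleomycin 1 of 31 was at least 2-fold higher in Tlr4-/- (Prim1) and 2 of 31 in wild type (Uhrf1 and Mcm4), against 1.88% of all genes in Tlr4-/- and 1.82% in wild type, and 0 were at least 2-fold lower in either, against 0.775% in Tlr4-/- and 0.445% in wild type. The member medians were 0.15 in Tlr4-/- and 0.24 in wild type, beside -0.03 and 0.00 over all genes. Differences between single arrays have no replicate check. The variance prior of the limma fit past the filter gives a spread of 0.23 (SD, log2) for a difference between 2 arrays. It was 0.19 in the fit of all genes. This prior comes from the residuals of genotype plus treatment over many genes, not from replicate arrays.

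For Uhrf1 the genotypes differed more in the untreated pools than at day 4, by 1.12 against -0.28 (Tlr4-/- minus wild type). For Mcm2 the gaps were closer in size, 0.70 untreated and -0.55 at day 4. In the untreated pools 1 member was at least 2-fold higher in Tlr4-/-, against 0.731% of all genes, and 0 were 2-fold lower, against 0.462%. This was Uhrf1, higher by 1.12, followed by Mcm2 at 0.70, Cdt1 at 0.49, Mcm4 at 0.47 and Rrm1 at 0.41, while Ccne2 differed by -0.82 and Cdc6 by -0.45. All 6 ring genes were above 0, with a median of 0.36, beside a median of 0.02 over all genes. Over all members 18 of 31 were above 0, beside 53.6% of all genes. The wild-type untreated array enters both this comparison and the wild-type bleomycin difference, so a low value on it shows in both.

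At day 4 no member reached 2-fold between the genotypes (0 of 31), against 0.0989% of all genes higher and 0.0495% lower in Tlr4-/-. Prim1 was higher in Tlr4-/- by 0.77, Cdc6 by 0.55 and Gmnn by 0.48, and Mcm2 differed by -0.55 and Mcm10 by -0.45. Of the ring genes 2 of 6 were higher in Tlr4-/-, Mcm5 and Mcm7. Across both treatments limma called 0 members and 0 of 9097 genes for genotype. At an unadjusted p under 0.05 it had 0 of the 17 members, against 7.21% of genes higher and 1.82% lower in Tlr4-/-. In the fit of all genes it had 1 of the 31, Mcm7, higher in Tlr4-/-, against 5.01% of genes higher and 2.02% lower.

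The response to bleomycin, Tlr4-/- minus wild type, passed 2-fold for 3 of 31 members. It was 1.15 for Prim1, -1.25 for Mcm2 and -1.40 for Uhrf1, against 0.868% of all genes above 2-fold and 0.808% below it. With each gene's brightest probe set it was 1.93 for Prim1 and -0.79 for Mcm2, and the 4 members past 2-fold were Cdt1, Prim1, Rrm2 and Uhrf1. All 6 ring genes were below 0 in this measure, from -1.25 for Mcm2 to -0.02 for Mcm5. They were so too under quantile normalization, centring and the probe set of highest mean. Over all members 15 of 31 were above 0, beside 45.3% of all genes. The median was -0.02 over the members and -0.03 over all genes, so the members as a whole did not differ from all genes as the ring did. No test of this difference was possible, since a model with an interaction leaves no residual degree of freedom with 1 array a group.

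Other replication genes outside the 32, such as those of the origin recognition complex, the polymerases and nucleotide supply, showed no calls. Of 53 measured, 30 passed the filter, and limma called 0 at an adjusted p under 0.05, with 3 higher and 0 lower at an unadjusted p under 0.05. Their median effect was 0.11. The largest effects were those of the GINS subunit gene Gins4 at 0.53 ± 0.17 (SE, limma adjusted p = 0.0658) and the mismatch repair gene Msh6 at 0.48 ± 0.17, the RPA subunit gene Rpa1 at 0.45 and the uracil glycosylase gene Ung at -0.38, none of which passed. The thymidine kinase gene Tk1 was dim, at 6.67 in Tlr4-/- and 7.31 in wild type at day 4, against 7.01 in Tlr4-/- and 6.16 in wild type untreated, and was picked for mention after its values were seen.

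Of the regulators of the step from G1 to S, 5 of 24 past the filter rose and 0 fell, with a median of 0.14. The cell cycle inhibitor gene Cdkn1a had 12.35 in Tlr4-/- and 12.36 in wild type at day 4, against 11.17 in Tlr4-/- and 10.43 in wild type untreated, and rose by 1.55 ± 0.19 (SE, limma adjusted p = 2.39e-04). Myc, a driver of cell growth, had 9.14 in Tlr4-/- and 8.84 in wild type at day 4, against 8.58 in Tlr4-/- and 7.41 in wild type untreated, and rose (limma adjusted p = 0.00718). The D-type cyclin gene Ccnd1 rose by 0.90 ± 0.18, as did the brakes Rb1 by 0.60 ± 0.16 and Cdkn2b by 0.57 ± 0.16. In the fit of all genes 1 of the 40 was called, Cdkn1a (limma adjusted p = 0.0326).

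In G2/M, 3 of 9 genes past the filter rose and 0 fell, with a median of 0.40. The ubiquitin-conjugating enzyme gene Ube2c rose by 1.24 ± 0.16, the kinase subunit gene Cks2 by 0.99 ± 0.16 and the chromosomal passenger gene Cdca8 by 0.98 ± 0.16. The proliferation marker Mki67 was higher by 0.42 ± 0.16 without passing (SE, limma adjusted p = 0.112). Of the 32 G2/M genes measured, 23 were dim. In the fit of all genes 4 of the 32 rose, the dim survivin gene Birc5 with these 3, and 1 fell, the dim spindle checkpoint gene Bub1 (limma adjusted p = 0.0244). Bub1 was at 5.88 in Tlr4-/- and 6.13 in wild type at day 4, against 6.98 in Tlr4-/- and 7.28 in wild type untreated. The difference between these lists and the S phase members was not tested.

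Targets of p53 rose in 13 of 21 and fell in 0: Phlda3, Ccng1, Ddit4l, Ercc5, Cdkn1a, Polk, Aen, Trp53inp1, Mdm2, Perp, Zmat3, Tigar and Sesn2, from 2.63 for Phlda3 to 0.64 for Sesn2. In the fit of all genes 13 of 25 rose, without Trp53inp1, Tigar and Sesn2 and with the dim Pmaip1, Fas and Tnfrsf10b.

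Markers of other cells moved too. Leukocyte and macrophage markers rose in 13 of the 14 past the filter, of 18 measured with 4 dim, and their summed linear signal was 16311 in Tlr4-/- and 13466 in wild type at day 4, against 5574 in Tlr4-/- and 5515 in wild type untreated. Those that rose were C1qb, C1qc, C1qa, Itgax, Mrc1, Fcer1g, Chil3, Tyrobp, Cd68, Csf1r, Laptm5, Cd14 and Marco, from 2.73 for C1qb to 0.77 for Marco. In the fit of all genes 11 of the 18 rose, and Cd68, Cd14, Laptm5 and Marco were not among them. The pan-leukocyte gene Ptprc was at 7.61 in Tlr4-/- and 7.54 in wild type at day 4, against 7.41 in Tlr4-/- and 6.69 in wild type untreated, with an adjusted p of 0.0901 in limma. The mesothelial genes Gpm6a, Msln and Upk3b, 3 of 3 past the filter, all rose. In the fit of all genes 2 of the 7 on that list rose, Msln and the dim Lrrn4, and Gpm6a and Upk3b were not called. The list of 7 had a summed signal of 1567 in Tlr4-/- and 1926 in wild type at day 4, against 528 in Tlr4-/- and 1101 in wild type untreated. The part of these cells in the values of the replication genes was not tested. In bulk samples, more cells of a cycling type and more RNA per cell cannot be told apart.

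AEC2 markers fell in 3 of 19 (Acoxl, Lgi3 and Hc) and rose in 0. Of 10 club and ciliated markers past the filter 2 fell, Tppp3 and Dynlrb2, and 0 rose. In the fit of all genes 0 genes of either list were called. The club and ciliated list had a summed signal of 24433 in Tlr4-/- and 24451 in wild type at day 4, against 18655 in Tlr4-/- and 32012 in wild type untreated, so it separated the untreated pools. The part of this list and of the other lists in the untreated difference of Uhrf1 and the ring genes was not tested. Lymphocyte (1 of 2, Cd2), neutrophil (1 of 3, Ltf) and fibroblast (1 of 2, Col1a1) lists each had 1 gene that rose among those past the filter. Endothelial markers had 0 of 1, and no erythroid marker passed the filter (0 of 4). In the fit of all genes the dim endothelial gene Pecam1 fell, and Cd2 was not called. There 3 of the 9 fibroblast genes rose, Col1a1 with the dim Col3a1 and Col1a2. The lymphocyte list had 10 of 12 genes dim, and its summed signal was 1084 in Tlr4-/- and 1078 in wild type at day 4, against 1366 in Tlr4-/- and 1289 in wild type untreated. Its dim T cell genes Cd3d, Cd3g, Cd4, Cd8a and Cd8b1 were below 0 in both genotypes without passing the test. Cd8a differed by -1.82 in Tlr4-/- and -0.11 in wild type, and Cd8b1 by -1.85 and -0.01 in that order. The dim T cell gene Cd3e went both ways, at -0.61 in Tlr4-/- and 0.29 in wild type. The largest gaps of this list between the untreated pools (Tlr4-/- minus wild type) were in dim genes. They were 1.54 for Cd8a, -1.54 for the B cell gene Cd79a, 1.53 for Cd3e and 1.51 for Cd8b1.

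**Figure D4:**
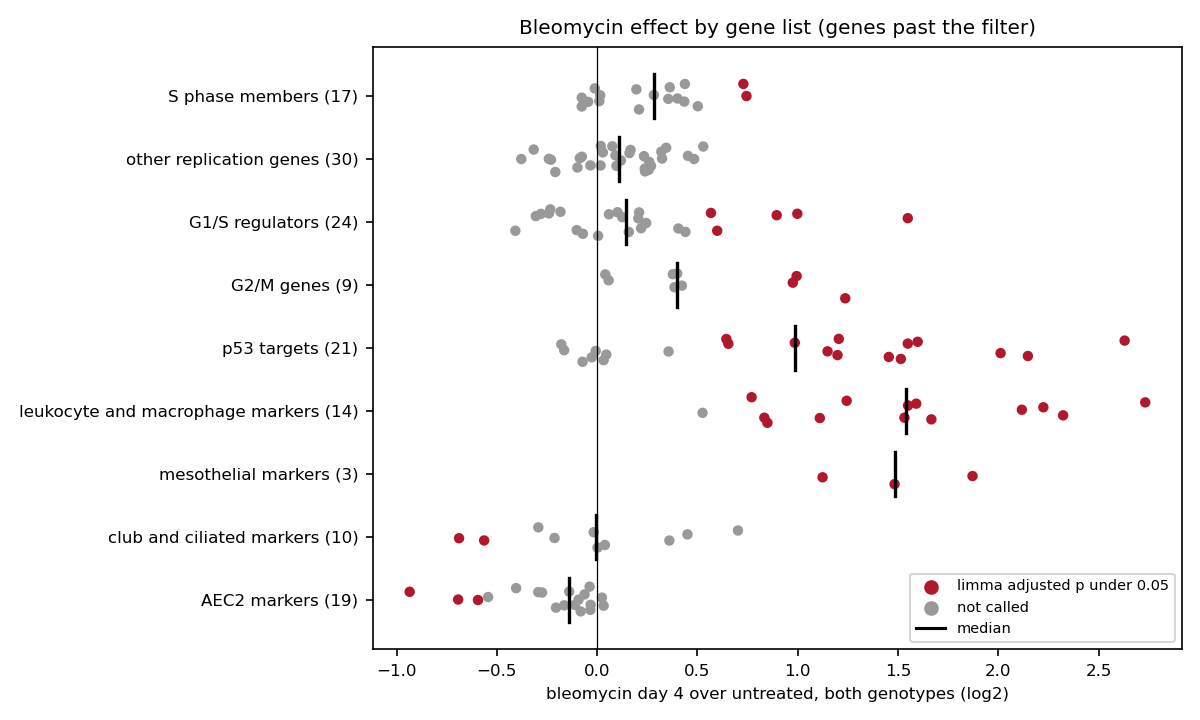
Bleomycin effect (log2, day 4 over untreated across both genotypes) of the genes past the filter in 9 lists, with the number of genes in brackets, 1 point per gene, red where the limma adjusted p is under 0.05, and a bar at each median. The S phase members lie between -0.08 and 0.74, and the 3 called G2/M genes between 0.98 and 1.24.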

How the data were processed

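Gene expression was measured on 4 Affymetrix arrays, 1 per group. The deposited values are log2 signals per probe set, read as such from their range and nearly equal array medians (6.93 to 6.98). Per the labels, the RNA went through whole-transcript amplification and biotin labelling. Software, normalization between arrays and detection calls: not given in the sources used here. Of 45101 probe sets, 34958 had 1 gene symbol, 34754 of these matched the RefSeq gene table, and 932 with several symbols and 9211 with none were left out. Probe sets were averaged per gene.

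Genes with a mean above the median of all genes were fitted by genotype plus treatment in limma 3.58.1 under R 4.3.3, adjusted by Benjamini-Hochberg over all 9097 and called under 0.05, and a second fit held all 18194 genes. The prior had 11.4 degrees of freedom. The step was tested on simulated data. P-values measure only differences between these pools. Single-array differences were compared with 2-fold and not tested. Alternatives were no filter, the probe set of highest mean, quantile normalization, centring, each array left out, eBayes with trend or robust, and a fit per probe set.

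All 32 members were named, and from each other list the genes called. The rule also took up to 4 genes with the largest effect per list, which are given for the replication and cell cycle lists and left out for the markers of cell types. Ptprc, Tk1 and Cd79a were added after their values were seen. Members and lists were chosen with earlier results of these data known.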

Additional observations from a re-analysis of the deposited data

Results flagged for a closer look

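Members whose bleomycin differences had opposite signs in the genotypes, both larger than 0.23, were taken for a closer look. That is the spread for a difference between 2 arrays from the fit past the filter. The dim Uhrf1 and Ccne2 were not in that fit, and the spread was 0.19 in the fit of all genes. The differences between the genotypes were not tested. Uhrf1 had a response in Tlr4-/- minus wild type of -1.40, from -0.26 in Tlr4-/- and 1.14 in wild type. With the brighter of its probe sets alone the response was -1.52. Its Tlr4-/- difference there was -0.21, inside the spread of 0.23, so by that spread it would not have been taken. Mcm2 had -1.25, from -0.26 in Tlr4-/- and 0.99 in wild type. With the brighter of its probe sets alone its response was -0.79 and its Tlr4-/- difference -0.15, inside that spread, so it would not have been taken. Ccne2 had 0.77, from 0.35 in Tlr4-/- and -0.42 in wild type. The wild-type untreated array was the lowest of the 4 for Uhrf1 and Mcm2 and the highest for Ccne2, with 6.03 for Uhrf1, 6.62 for Mcm2 and 6.73 for Ccne2. Both probe sets of Uhrf1 and both of Mcm2 had that array lowest, and Ccne2 had 1 probe set.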

How the results depend on the processing

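The count of 2 members called after bleomycin became 0 with no filter, 0 after centring, 1 with each gene's brightest probe set (Rrm1) and 1 with a fit per probe set (Rrm1). Leaving out 1 array at a time gave 0 to 2. It was 0 without either day 4 array, Orc6 alone without the wild-type untreated array, and Mcm4 and Rrm1 without the Tlr4-/- untreated array. The fits with an array left out had no second term, so the change of model and the loss of the array cannot be told apart. Quantile normalization, trend and robust settings kept Mcm4 and Orc6. In the fit of all genes, the count of 0 stayed 0 under each alternative except leave-one-out, which gave 0 to 2 (Mcm4 and Uhrf1 without the Tlr4-/- untreated array). For genotype the count was 0 in every alternative run. The count at 2-fold between genotypes at day 4 became 1 (Prim1) with the brightest probe set. For wild type after bleomycin the 2 members became 3 (Mcm2 added) under quantile normalization and under centring, and for the response 3 became 4 with the brightest probe set, without Mcm2 and with Cdt1 and Rrm2. The cause of these moves was not tested. Among single members signs turned for effects near 0: Pold1 (-0.032) and Rfc4 (-0.014) under quantile normalization. Leaving out 1 array at a time gave -0.015 to 0.045 for Pold1, -0.080 to 0.056 for Pcna, -0.15 to 0.17 for Rfc4, -0.24 to 0.087 for Fen1 and -0.17 to 0.077 for Ccne1. It gave 0.12 to 0.89 for Prim1, 0.20 to 0.61 for Rrm1, 0.014 to 0.71 for Mcm2, 0.25 to 0.62 for Mcm3, 0.51 to 0.98 for Mcm4, 0.13 to 0.43 for Mcm6, 0.015 to 0.38 for Mcm7, 0.095 to 0.32 for Lig1 and 0.56 to 0.89 for Orc6. Over all genes, 653 rose and 230 fell, against 319 and 48 without the filter, 378 and 106 after centring, 279 and 62 with the brightest probe set, 0 and 0 without the Tlr4-/- day 4 array, 18 and 3 without the wild-type day 4 array, 802 and 227 without the Tlr4-/- untreated array, 375 and 199 without the wild-type untreated array, and 760 and 291 with trend. Probe sets disagreed in sign for 11 of the 23 members with several. No paired analysis was possible because the labels give no replicate numbers and each group has 1 array. Without detection calls, differences of the 14 dim members have an uncertain size.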
